A study of Sus scrofa with 12 samples.

Results

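The Notch genes examined here are 4 receptors (NOTCH1, NOTCH2, NOTCH3 and NOTCH4), 3 ligands (JAG1, JAG2 and DLL4) and 3 target genes (HES1, HEY1 and HEY2). They were taken by symbol from the 29884 genes of the FPKM table, in which all 10 were found. Left ovaries of multiparous sows from a commercial herd were compared between small litter size (SLS, 8.48 ± 0.53 piglets per litter) and large litter size (LLS, 16.19 ± 0.43 piglets per litter), as mean ± SEM by the general statement of the methods. All sows were slaughtered 4 days after delivery number 4, no sow received a treatment named in the labels, and whole ovary tissue was used. Total RNA without ribosomal RNA gave 1 library per ovary, ZD2, ZD3 and ZD12 in SLS and ZD5, ZD7 and ZD8 in LLS, so that n = 3 sows in each group.

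Notch receptors are membrane proteins that are activated by ligands on a neighbouring cell. Ligand binding lets ADAM proteases and then the gamma-secretase complex cut the receptor, and the freed intracellular domain enters the nucleus, where it joins the DNA-binding protein RBPJ and a Mastermind coactivator to switch on targets such as the HES and HEY repressors. In the ovary the pathway is known from the contact of oocytes and granulosa cells, where JAG1 and NOTCH2 act in early follicles, and from blood vessels, where DLL4 and NOTCH4 mark endothelial cells and NOTCH3 marks the mural cells around them. The corpus luteum, which forms from the ruptured follicle, is one of the most densely vascularised tissues of the body.

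Promoter windows of NOTCH4 and DLL4 are shown because these were the members whose SLS and LLS values did not overlap. Each window runs from 250 bases before to 50 bases after the start of the longest RefSeq transcript, read from the Sscrofa11.1 genome in the direction of the gene. Capitals mark matches to the RBPJ core TGGGAA on either strand. The NOTCH4 window lies on the minus strand at chr7:24256232-24256531 and holds no match, and the DLL4 window on the minus strand at chr1:130386362-130386661.
NOTCH4: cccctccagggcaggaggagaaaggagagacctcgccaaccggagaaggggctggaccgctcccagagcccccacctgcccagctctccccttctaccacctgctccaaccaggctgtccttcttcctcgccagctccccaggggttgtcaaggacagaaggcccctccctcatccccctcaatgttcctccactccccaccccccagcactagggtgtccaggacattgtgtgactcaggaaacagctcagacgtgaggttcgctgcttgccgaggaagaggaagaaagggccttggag
DLL4: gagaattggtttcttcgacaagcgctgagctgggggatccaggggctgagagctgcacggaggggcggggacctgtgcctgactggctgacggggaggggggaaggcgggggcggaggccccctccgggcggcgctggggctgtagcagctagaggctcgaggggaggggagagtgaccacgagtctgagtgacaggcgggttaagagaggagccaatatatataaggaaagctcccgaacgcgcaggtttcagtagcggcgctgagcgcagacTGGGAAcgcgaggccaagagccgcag
The match in DLL4 spans bases 25 to 30 of the transcript. The core was found in 27.1% of the 12245 windows of tested genes. The match is a description of letters, and the search covered these windows only.

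The genes lie on several chromosomes of Sscrofa11.1. NOTCH2 (34 exons in its longest transcript) lies on chromosome 4 from 100951522 to 101152348, NOTCH3 (33 exons) on chromosome 2 from 62364507 to 62402348 and NOTCH4 (31 exons) on chromosome 7 from 24231293 to 24256281. NOTCH1 (34 exons) and JAG2 (26 exons) are placed on scaffolds without a chromosome. JAG1 (25 exons) lies on chromosome 17 from 19591248 to 19629659 and DLL4 (11 exons) on chromosome 1 from 130376720 to 130386411. HES1 lies on chromosome 13 from 131135970 to 131137865 and HEY2 on chromosome 1 from 37219887 to 37231321. The longest annotated transcript of HES1 is only 854 nt, the shortest of the 10, and its FPKM rests on that length.

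The libraries held 32272803 to 60903268 reads, with the lowest depth in the LLS ovary ZD8. FPKM divides the reads of a gene by its length and by the reads of the library, so that levels can be set side by side between genes. The Notch genes rested on 148 reads (HES1 in ZD8, a counting error of 8.22%) to 70307 reads (NOTCH2 in ZD8). ZD8 stood apart from the other ovaries, with 96.5 on the first principal component of 12260 genes against -32.2 to 9.50. STAR, which carries cholesterol into mitochondria of luteal cells, was at 26.4 FPKM in ZD8 and at 2542 to 5418 FPKM elsewhere, and the 7 luteal genes summed to 124 FPKM against 9167 to 12191 FPKM. The theca gene INSL3 was at 298 FPKM in ZD8 and at 2.28 to 45.1 FPKM in the other ovaries. Differences of the Notch genes are therefore given with and without ZD8, as are those of lists and of some other genes. Leaving out an ovary cannot make groups overlap that were apart, so that only the size of the difference is read there for such genes. Fewer cells of a type and less RNA per cell cannot be told apart in such whole-tissue libraries.

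NOTCH2 was the most abundant of the 10 Notch genes, and the first 4 places, NOTCH2, NOTCH3, JAG1 and NOTCH1, were the same in all 6 ovaries. Over the 6 ovaries their mean levels were 70.9, 33.9, 24.3 and 14.7 FPKM. DLL4 followed at 9.28 ± 2.52 FPKM (SD, n = 6), above NOTCH4 at 8.21 ± 2.77 FPKM in 5 of 6 ovaries. Their means lay closer together than the SD of either gene across ovaries, and their difference within ovaries was not tested. HES1 (5.69 ± 0.449 FPKM) was above HEY2 (5.65 ± 2.57 FPKM) in 3 of 6 ovaries, and JAG2 stood at 4.89 ± 1.28 FPKM. HEY1 was lowest on average at 2.94 ± 0.675 FPKM. NOTCH2 lay at the percentile 93.6 of mean level among the 12260 tested genes, and HEY1 at 16.6.

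**Figure D1:**
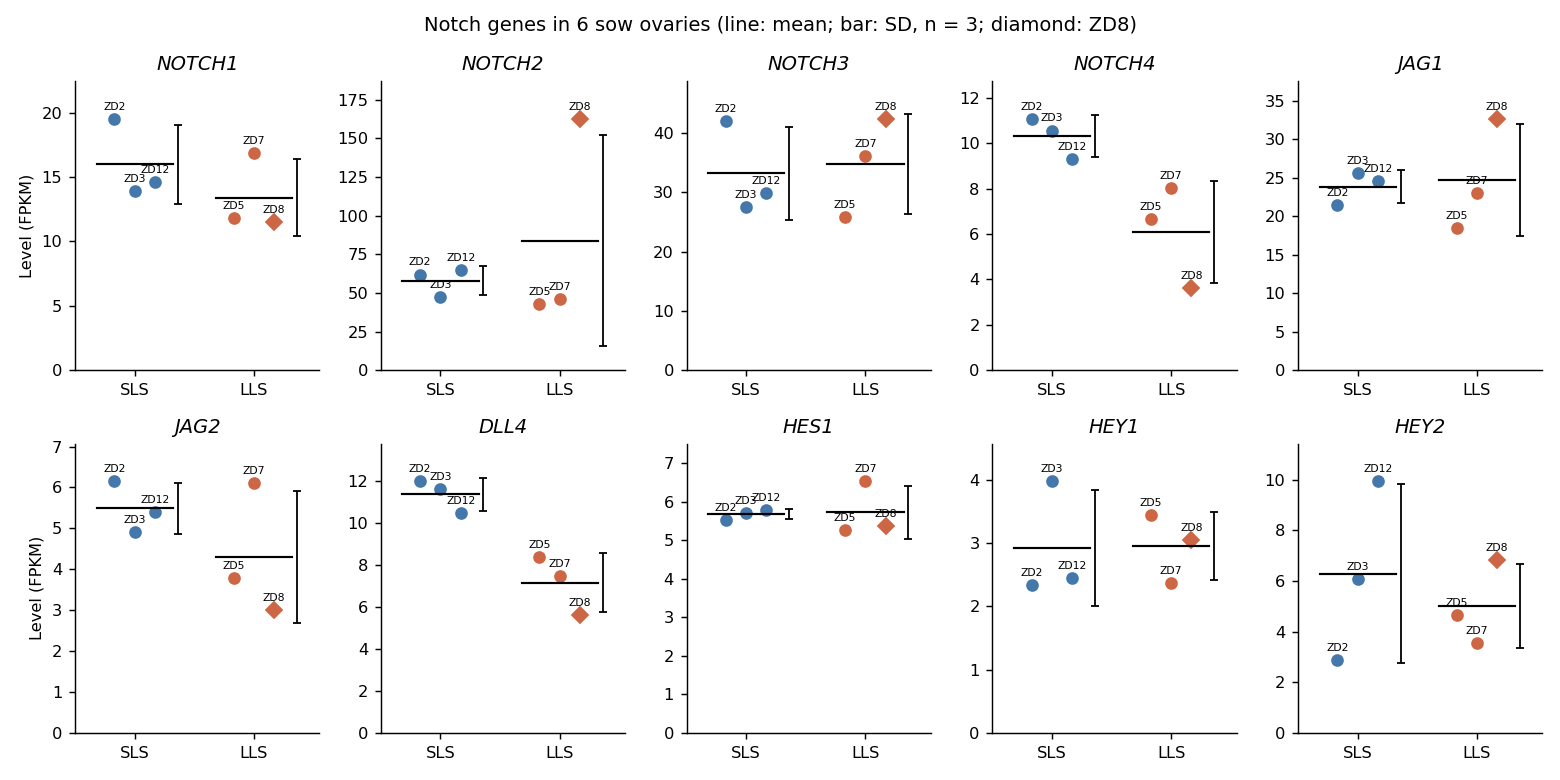
Level of the 10 Notch genes in FPKM (y axis, linear, from 0) in the 3 SLS and 3 LLS ovaries. Each point is 1 ovary, the line is the group mean and the bar the SD, and the groups are apart for NOTCH4 and DLL4 alone, while NOTCH2 in ZD8 (163 FPKM) lies far above the other 5 ovaries.

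The question was whether the Notch genes differed between ovaries of SLS and LLS sows. None of the 10 was called by limma on log2(FPKM + 1), which required a Benjamini-Hochberg adjusted p under 0.05 and a difference over 1, and 0% of the 12260 tested genes were called by the same rule. All 10 passed the filter of at least 1 FPKM in at least 3 libraries. At an unadjusted p under 0.05 by limma, 1 of the 10 (DLL4) was lower in LLS, where 1.21% of all tested genes were. The values of the groups did not overlap for 2 of the 10, NOTCH4 and DLL4, both lower in LLS, against 3.17% of the tested genes. No Notch gene had all LLS values above all SLS values, against 1.95% of the tested genes. The median difference was -0.09 over the Notch genes and 0.02 over all tested genes on the log2(FPKM + 1) scale.

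NOTCH1, a receptor of many cell types including endothelium, was at 19.5 FPKM in ZD2, 13.9 FPKM in ZD3 and 14.6 FPKM in ZD12 of the SLS group. The LLS group had 11.8 FPKM in ZD5, 16.8 FPKM in ZD7 and 11.5 FPKM in ZD8. ZD2 was highest and ZD8 lowest, and the groups overlapped. The mean was 16.0 ± 3.07 FPKM in SLS and 13.4 ± 2.99 FPKM in LLS (SD, n = 3 each), a difference of -0.24 on the log2(FPKM + 1) scale (standard error 0.28, adjusted p = 0.999 by limma).

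NOTCH2, the receptor known from granulosa cells of early follicles, was at 61.9, 47.1 and 64.8 FPKM in ZD2, ZD3 and ZD12. It was at 42.9, 46.0 and 163 FPKM in ZD5, ZD7 and ZD8. ZD8 was above all other ovaries, while ZD5 and ZD7 were below every SLS ovary. ZD8 held 3.10 times the mean level of the other 5 ovaries, and 7.90% of the tested genes had a ratio at least as high. With all ovaries the means were 57.9 ± 9.53 FPKM in SLS and 83.9 ± 68.2 FPKM in LLS (SD, n = 3 each), with a log2 difference of 0.26 (standard error 0.51). The adjusted p was 0.999 by limma, and a two-sided exact permutation test gave 1. Without ZD8 the sign turned, to -0.36 (standard error 0.25, adjusted p 0.9996 by limma). ZD8 was highest for 44.6% of all tested genes and for 7 of 7 leukocyte genes. Of 7 tested granulosa genes it was highest for 4, near that background, among them FOXL2 (37.8 against 6.11 to 30.6 FPKM), and lowest for INHA (66.4 against 162 to 726 FPKM), and the granulosa sum was lowest in ZD8 (183 against 198 to 889 FPKM). The granulosa sum was also apart between the groups, at 394 to 889 FPKM in SLS and 183 to 325 FPKM in LLS (exact permutation p = 0.1, two-sided), with LLS at 0.380 times SLS, or 0.422 times without ZD8. INHA, a subunit of inhibin, took most of this sum in every ovary except ZD8. Of the 7 tested granulosa genes, 5 had an estimate above 0 and 2 below, with a median difference of 0.32. Without ZD8 there were 4 above 0 and 3 below, with a median of 0.22. Of 4 theca genes ZD8 was highest for 3 and lowest for LHCGR, and of 4 oocyte genes highest for 3, among them GDF9, and lowest for KIT. Without ZD8 the median difference of the theca genes went from 0.50 to -0.91, with all 4 below 0. The LLS mean of the theca sum then went from 2.03 to 0.468 times that of SLS. LHCGR, which is also in the luteal list, had a mean of 48.2 FPKM in SLS, where the mean theca sum was 90.1 FPKM. The part of the cell types named here in the level of NOTCH2 was not tested.

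NOTCH3, the receptor of mural cells, was at 42.0, 27.6 and 29.8 FPKM in ZD2, ZD3 and ZD12. The LLS values were 25.8, 36.1 and 42.4 FPKM in ZD5, ZD7 and ZD8. The groups overlapped, with a difference of 0.06 (standard error 0.30, 95% interval from -0.63 to 0.75). Without ZD8 the difference was -0.09. NOTCH3 was lowest in ZD5, and so were 6 of the 9 mural genes, among them ACTA2, the actin of smooth muscle (196 FPKM). The other 3 were lowest elsewhere, and RGS5, a pericyte gene, was highest in ZD5 (264 FPKM). The share of all tested genes lowest in ZD5 was not counted. NOTCH3 was highest in ZD8, and so were 3 of the 9 mural genes, where 44.6% of all tested genes were. The mural sum was 934 to 2029 FPKM in SLS and 653 to 1099 FPKM in LLS. Of the 9 mural genes, 0 were called and 0 had groups apart, where 3.17% of all tested genes were wholly lower and 1.95% wholly higher. Without ZD8 the median difference of the mural genes went from -0.41 to -0.84, the LLS mean of their sum was 0.554 times that of SLS, and 4 of 9 (ACTA2, MYH11, CNN1 and DES) were wholly lower in LLS, against 11.7% of the tested genes, with none called.

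NOTCH4, the receptor known mainly from endothelial cells, was at 11.08, 10.6 and 9.31 FPKM in ZD2, ZD3 and ZD12. In ZD5, ZD7 and ZD8 it was at 6.66, 8.02 and 3.62 FPKM. The groups were apart, LLS being lower, and ZD8 was lowest. The mean was 10.3 ± 0.910 FPKM in SLS and 6.10 ± 2.25 FPKM in LLS (SD, n = 3 each), 0.591 times the SLS mean. The log2 difference of -0.72 (standard error 0.32) had an unadjusted p of 0.0505 and an adjusted p of 0.999 by limma, and the exact permutation test gave p = 0.1, two-sided, the smallest that 3 ovaries against 3 allow. Without ZD8 the difference was -0.44 (standard error 0.24), over 1.5 times smaller, with LLS at 0.712 times SLS.

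Among the ligands, JAG1, which is known from oocytes and vessels, was at 21.4, 25.5 and 24.5 FPKM in ZD2, ZD3 and ZD12. It was at 18.5, 22.9 and 32.6 FPKM in ZD5, ZD7 and ZD8. ZD8 was highest and ZD5 lowest, both in LLS, and the difference was 0.02 (standard error 0.28, 95% interval from -0.64 to 0.67). JAG2, a ligand of the same Jagged class, was at 6.15, 4.90 and 5.41 FPKM in SLS and at 3.78, 6.12 and 3.00 FPKM in LLS in the same order of ovaries. ZD5 and ZD8 were below the SLS ovaries and ZD7 was among them, with a difference of -0.33 (standard error 0.30).

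DLL4, the Delta-class ligand of endothelial tip cells, was at 12, 11.6 and 10.5 FPKM in ZD2, ZD3 and ZD12. Values of LLS (ZD5, ZD7 and ZD8) were 8.40, 7.48 and 5.65 FPKM, all below the lowest SLS ovary. The mean was 11.4 ± 0.782 FPKM in SLS and 7.18 ± 1.40 FPKM in LLS (SD, n = 3 each), 0.630 times the SLS mean. The log2 difference was -0.61 (standard error 0.26, 95% interval from -1.21 to -0.0150), with an unadjusted p of 0.0457 and an adjusted p of 0.999 by limma and p = 0.1 by the exact permutation test, two-sided. With any one ovary left out the unadjusted p of DLL4 by limma was above 0.05, from 0.0648 to 0.118. Without ZD8 the difference was -0.47 (standard error 0.24), with LLS at 0.697 times SLS. Without ZD8, 3 of the 10 Notch genes (NOTCH2, NOTCH4 and DLL4) had LLS wholly below SLS, against 11.7% of the tested genes, and 0 of 10 lay wholly above, against 7.44%. Of the 3, NOTCH2 alone was added by leaving out ZD8.

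All 3 target genes overlapped between the groups. HES1, a repressor of differentiation genes, was at 5.52, 5.71 and 5.78 FPKM in ZD2, ZD3 and ZD12 and at 5.27, 6.52 and 5.37 FPKM in ZD5, ZD7 and ZD8. Its highest ovary was 1.24 times its lowest, and the difference was 0.01 (standard error 0.25, 95% interval from -0.57 to 0.58). HEY1, a repressor known from endothelium, was at 2.33, 3.98 and 2.45 FPKM in SLS and at 3.45, 2.37 and 3.05 FPKM in LLS. The LLS values lay inside the SLS range, with a difference of 0.03 (standard error 0.29). HEY2, known from arteries, was at 2.88, 6.07 and 9.94 FPKM in SLS and at 4.66, 3.54 and 6.83 FPKM in LLS. The lowest and the highest value were both SLS ovaries, ZD2 and ZD12, and the difference was -0.19 (standard error 0.42). The 95% intervals of HES1 and HEY1 lay within a log2 difference of 1 in either direction, while that of HEY2 reached -1.16.

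**Figure D2:**
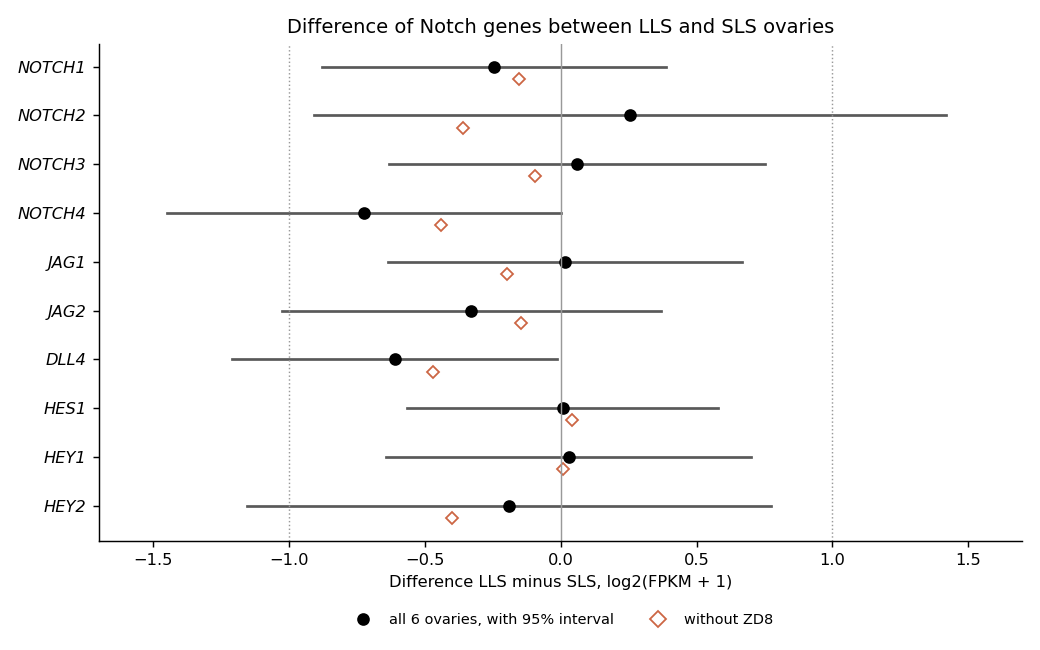
Difference of LLS from SLS on the log2(FPKM + 1) scale (x axis) for each Notch gene, as the limma estimate with its 95% interval (circle and line) and as the estimate without ZD8 (open diamond). Dotted lines mark a difference of 1 in either direction, and the interval lies wholly below 0 for DLL4 alone (-1.21 to -0.0150).

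ZD8 was outside the range of the other 5 ovaries for 7 of the 10 Notch genes. It was above them for 3 (NOTCH2, NOTCH3 and JAG1), where 44.6% of the tested genes were, and below them for 4 (NOTCH1, NOTCH4, JAG2 and DLL4), where 26.3% of the tested genes were. The 3 target genes were all within the range of the others. Without ZD8 the differences of the genes not yet given so were -0.15 for NOTCH1, -0.20 for JAG1, -0.15 for JAG2, 0.04 for HES1, 0.00755 for HEY1 and -0.40 for HEY2 on the log2(FPKM + 1) scale, and JAG1 thus changed sign. The median over all tested genes was -0.10 without ZD8.

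The makeup of the receptors and ligands was compared as shares of their summed FPKM, which no scaling of a library can change. NOTCH2 held 43.0% to 54.7% of receptor FPKM in 5 ovaries and 73.9% in ZD8. NOTCH4 held 8.23%, 10.7% and 7.85% in ZD2, ZD3 and ZD12 and 7.64%, 7.50% and 1.64% in ZD5, ZD7 and ZD8. The NOTCH4 shares were apart between the groups (exact permutation p = 0.1, two-sided). The mean NOTCH4 share in LLS was 0.628 times that in SLS, and 0.849 times without ZD8. JAG1 held 54.2% to 62.8% of the FPKM of the 3 ligands in 5 ovaries and 79.0% in ZD8. Ligands outside these 3 do not enter the shares. DLL4 held 30.3%, 27.7% and 26.0% in SLS and 27.4%, 20.5% and 13.7% in LLS, where the groups overlapped (exact permutation p = 0.2, two-sided), and its mean share was 0.733 times that in SLS, or 0.855 times without ZD8. Summed over the 3 ligands, ZD8 (41.3 FPKM) was within the SLS range of 39.6 to 42.1 FPKM. The sum of the 4 receptors was 220 FPKM in ZD8 against 87.2 to 135 FPKM.

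**Figure D3:**
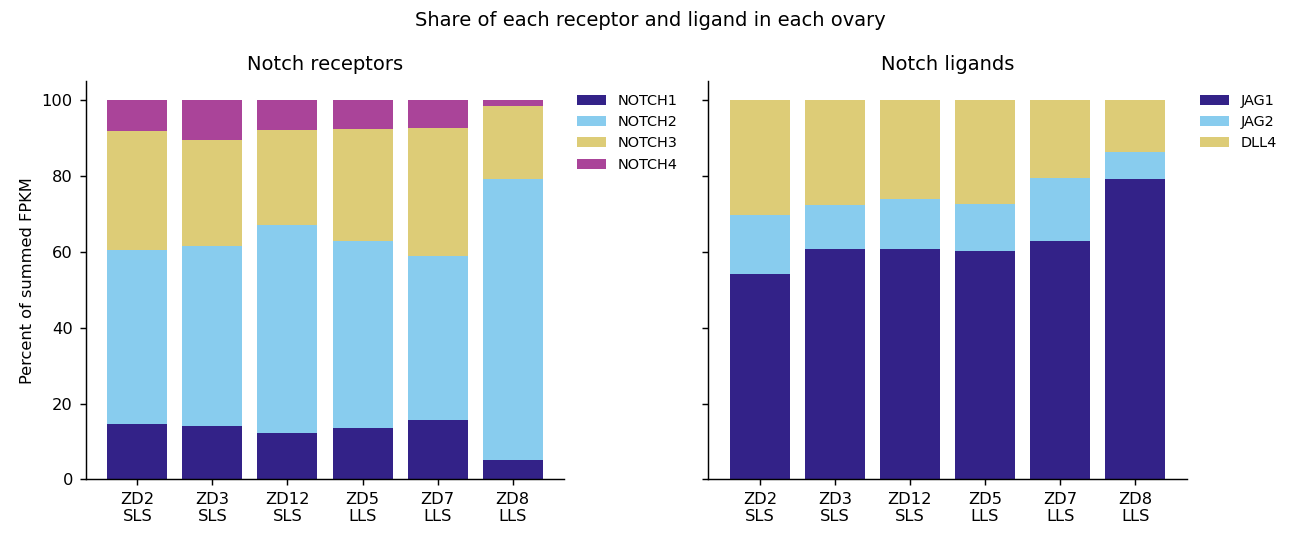
Share of each receptor and each ligand in the summed FPKM of its family (y axis, percent) for every ovary. ZD8 has the largest NOTCH2 share (73.9%) and JAG1 share (79.0%) and the smallest NOTCH4 share (1.64%) and DLL4 share (13.7%).

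Endothelial markers were set beside NOTCH4 and DLL4. The 11 endothelial genes, none at 0 in any ovary, summed to 416 to 513 FPKM in SLS and to 238 to 575 FPKM in LLS, with the highest sum in ZD7 and the lowest in ZD8. PECAM1, an adhesion protein of endothelial junctions, was at 87.7, 105 and 89.4 FPKM in SLS and at 49.0, 86.0 and 25.4 FPKM in LLS, the only one of the 11 with groups apart, where 3.17% of the tested genes were wholly lower and 1.95% wholly higher. CDH5, the cadherin of the same junctions, was at 47.0 to 70.6 FPKM in SLS and at 17.3 to 55.3 FPKM in LLS. KDR, the main receptor for VEGF, was at 42.4 to 64.1 FPKM in SLS and at 68.7, 90.1 and 21.6 FPKM in ZD5, ZD7 and ZD8. Of the 11, 0 were called, and ZD8 was lowest for 7, where it was lowest for 26.3% of all tested genes. Without ZD8 the sum turned from 0.870 to 1.05 times that of SLS. The difference of PECAM1 then went from -0.96 to -0.52, that of CDH5 from -0.77 to -0.30 and that of KDR from -0.12 to 0.49 on the log2(FPKM + 1) scale, and 3 of 11 (KDR, FLT1 and VWF) were wholly higher in LLS, against 7.44% of the tested genes, and 1 of 11 (PECAM1) wholly lower, against 11.7%. The granulosa sum, given above, was lower in LLS, but INHA took most of it outside ZD8. FSHR and AMH of the same list had estimates above 0. Of the 7 tested granulosa genes, 5 had an estimate above 0, with a median difference of 0.32. The part of granulosa cells in the levels of NOTCH4 and DLL4 was not tested.

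As a percent of this endothelial sum, a measure chosen after the values were seen, NOTCH4 was at 2.16%, 2.27% and 2.24% in ZD2, ZD3 and ZD12 and at 1.67%, 1.39% and 1.52% in ZD5, ZD7 and ZD8. The groups were apart with ZD8 in the middle of the LLS values (exact permutation p = 0.1, two-sided). DLL4 was at 2.34%, 2.50% and 2.53% in SLS and at 2.10%, 1.30% and 2.38% in LLS, where ZD8 was within the SLS values. On this scale 1 of the 10 Notch genes (NOTCH4) was wholly lower in LLS, against 1.31% of the tested genes. Without ZD8 the mean percent in LLS was 0.688 times that in SLS for NOTCH4, against 0.687 times with it, and 0.692 times for DLL4, against 0.784 times. Without ZD8 also NOTCH1 and DLL4 were wholly lower, so 3 of 10, against 10.1% of the tested genes. These percents also carry the change of the sum itself, and the sum mixes genes of both directions, with 4 of 11 estimates above 0 and 7 below. The LLS mean was 0.569 times the SLS mean for PECAM1 and 0.634 times for CDH5, beside 0.591 times for NOTCH4. It was 1.06 times for KDR and 1.22 times for VWF. A lower NOTCH4 percent thus holds for this sum, and NOTCH4 relative to single endothelial genes was not tested. How far the number of endothelial cells enters these levels was not tested.

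**Figure D4:**
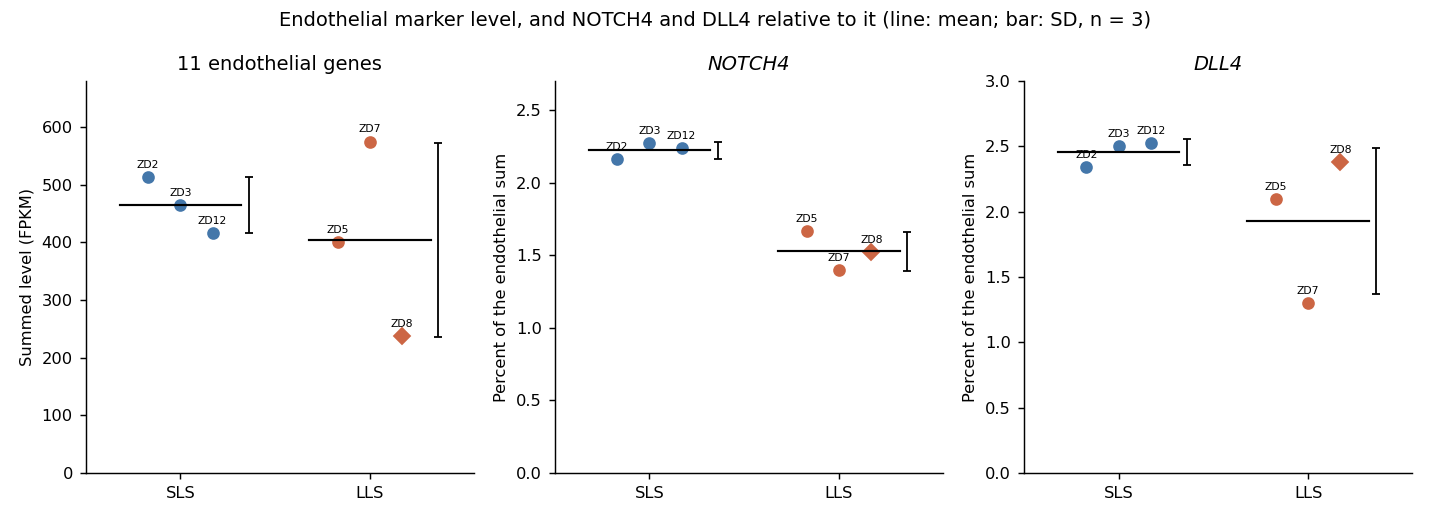
Summed FPKM of 11 endothelial genes (left), and NOTCH4 (middle) and DLL4 (right) as a percent of that sum, per ovary, with the group mean as a line and the SD as a bar. NOTCH4 is apart between SLS (2.16% to 2.27%) and LLS (1.39% to 1.67%), while DLL4 overlaps.

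The rest of the pathway was read from 7 lists with 61 genes, of which 60 were in the table and 54 passed the filter. None was called (0 higher and 0 lower in LLS), 34 of the 54 had an estimate above 0 and 20 below 0. Without ZD8 this turned to 19 above and 35 below, and the median difference went from 0.11 to -0.08. Over all tested genes the median went from 0.02 to -0.10, so that the turn is near the background. The groups were apart for 4, APH1B and NUMB higher and HES2 and HES6 lower in LLS. These 2 of 54 in each direction stand beside 1.95% higher and 3.17% lower among all tested genes, so that the count is near the background. HES2 and APH1B, in opposite directions, were the only 2 of the 54 with an unadjusted p under 0.05 by limma.

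In the list of other targets, which holds HES and HEY relatives and NRARP, the median difference over 5 tested genes was -0.40. All 7 genes summed to 37.6 to 44.1 FPKM in SLS and to 25.7 to 33.8 FPKM in LLS (exact permutation p = 0.1, two-sided). HES2 and HES6, counted above, had groups apart, while those of HEYL (difference -0.19) and NRARP overlapped. Whether Notch controls each gene of this list in the ovary was not tested. Without ZD8 the LLS mean of the sum of the 7 genes was 0.787 times that of SLS, against 0.734 times with it. HES2, a HES repressor less studied than HES1, was at 7.98, 7.13 and 6.39 FPKM in ZD2, ZD3 and ZD12 and at 2.60, 5.08 and 0.611 FPKM in ZD5, ZD7 and ZD8. All LLS ovaries were below all SLS ovaries, with a difference of -1.31 (standard error 0.46, unadjusted p = 0.0215 and adjusted p = 0.999 by limma). Without ZD8 the difference of HES2 was -0.80 (standard error 0.29, adjusted p = 0.612 by limma), over 1.5 times smaller. HES6, which can counter HES1, was at 4.72 to 6.12 FPKM in SLS and at 3.37 to 4.70 FPKM in LLS (difference -0.40, standard error 0.27, and -0.34 without ZD8). HEYL, a relative of HEY1 known from mural cells, was at 11.8 to 16.7 FPKM in SLS and at 10.8 to 16.3 FPKM in LLS, above HES1, HEY1 and HEY2 in every ovary. NRARP, a feedback inhibitor of Notch named after its values were seen, was at 8.57 to 11.2 FPKM in 5 ovaries and at 2.13 FPKM in ZD8 (difference -0.66, and -0.09 without ZD8).

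In receptor cleavage the 9 genes had a median difference of 0.02, and of 0.27 without ZD8, where all 9 estimates were above 0. The gamma-secretase subunits NCSTN, APH1A and PSENEN had SLS means of 52.8, 59.9 and 56.2 FPKM and LLS means of 56.7, 54.5 and 52.7 FPKM. PSEN2, a catalytic subunit, was at 5.68 to 16.1 FPKM, lowest in ZD8. APH1B, an alternative scaffold subunit, was at 9.67, 14.5 and 15.7 FPKM in SLS and at 23.2, 16.9 and 33.6 FPKM in LLS, with a difference of 0.81 (standard error 0.33, unadjusted p = 0.0375 and adjusted p = 0.999 by limma) and of 0.57 without ZD8. The protease ADAM10 was at 32.8 FPKM in ZD8 and at 141 FPKM in ZD5 (difference 0.20, and 0.84 without ZD8), ADAM17 stayed between 15.7 and 17.7 FPKM in all ovaries, and FURIN, which cuts the receptor during its export, was at 18.0 to 46.5 FPKM. ZD8 was lowest for 6 of these 9 genes, where it was lowest for 26.3% of all tested genes.

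In the nuclear complex ZD8 had the highest value for 8 of 9 genes, where it did for 44.6% of all tested genes. The median difference of the list was 0.32 with ZD8 and -0.10 without it, against 0.02 and -0.10 over all tested genes. The exception was RBPJ, the DNA-binding partner of the receptors, at 11.2 to 21.6 FPKM in SLS and 13.3 to 21.0 FPKM in LLS. Its difference was 0.03 (standard error 0.32), and -0.15 without ZD8. The coactivators MAML1, EP300, CREBBP, KAT2A, KAT2B and SNW1 were at 22.9, 49, 45.3, 19.6, 27.8 and 35.0 FPKM in ZD8. In the other 5 ovaries EP300 was at 22.7 to 25 FPKM and CREBBP at 13.6 to 19.4 FPKM. Among corepressors ZD8 was highest for 6 of 11, near that background share, and the median difference of the list was 0.13 with ZD8 and -0.12 without it. The 6 include NCOR1, SPEN, CTBP2 and TLE4, and ZD8 was lowest for HDAC1 (26.8 against 35.5 to 45.5 FPKM). CTBP1, HDAC2 and TLE3 were within the range of the others in ZD8.

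Genes of ligand endocytosis and receptor turnover had a median difference of 0.25 over 10 tested genes, which was -0.01 without ZD8. Of these 10, ZD8 was highest for 9, against 44.6% of all tested genes. NUMB, an inhibitor that promotes receptor uptake, was at 12.5, 15.572 and 12.4 FPKM in SLS and at 15.578, 17.0 and 19.0 FPKM in LLS. ZD5 was thus above ZD3 only in the third decimal, and the difference was 0.33 (standard error 0.25), or 0.26 without ZD8. The ligand ubiquitin ligases MIB1 and MIB2 were at 19.6 to 35.0 and 8.93 to 25.3 FPKM, the receptor ligase ITCH at 11.8 to 23.1 FPKM and NUMBL at 5.89 to 19.8 FPKM. DTX1, which binds the intracellular domain, was at 41.8 FPKM in ZD8 and at 6.37 to 13.05 FPKM elsewhere (difference 0.36, and -0.47 without ZD8). The glycosyltransferases POFUT1 and RFNG were at 16.1 to 25.7 and 12.6 to 25.2 FPKM, and EGFL7, a secreted vessel protein that binds Notch, at 12.2 FPKM in ZD8 and at 19.5 to 31.1 FPKM elsewhere.

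**Figure D5:**
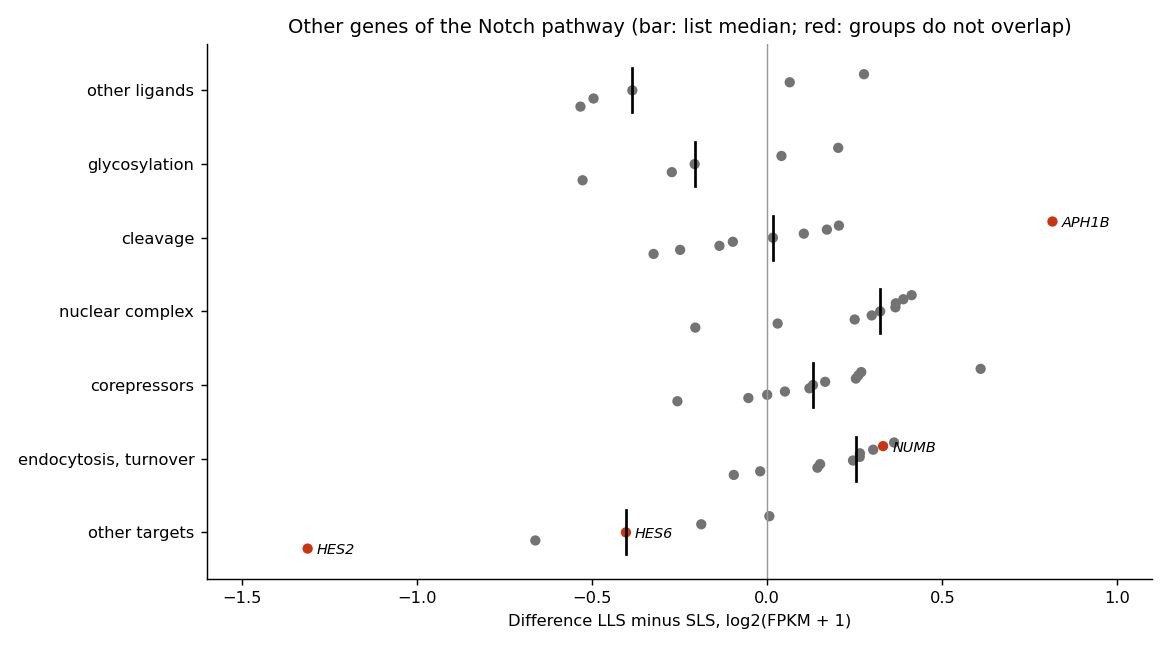
Difference of LLS from SLS on the log2(FPKM + 1) scale (x axis) for 54 other genes of the pathway, by list (y axis). Each point is a gene, red where the groups do not overlap, and the bar is the median of the list, from -0.40 in the other targets to 0.32 in the nuclear complex.

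The genes whose pattern over the 6 ovaries was closest to each Notch gene were found as the smallest root mean square difference of log2(FPKM + 1), with both genes centred on their own mean, among 12250 other genes. For NOTCH4 these were MKI67 (0.0476) and KIF20A (0.0802), both genes of dividing cells, with MKI67 at 14.1, 13.4 and 12.9 FPKM in SLS and at 8.503, 10.9 and 5.08 FPKM in LLS. For DLL4 they were IL18 (0.0658) and PTGS2 (0.0823), and for JAG2 KIF18B (0.0444) and DIABLO (0.0487). JAG1 was closest to POLD3 (0.0525) and MCM10 (0.0642), genes of DNA replication. NOTCH1 was closest to TMEM214 (0.0485) and PDE2A (0.0524), NOTCH2 to ACOT11 (0.0524) and BRSK1 (0.0549), and NOTCH3 to SKAP1 (0.0645) and NUP62 (0.0654). HES1 was closest to FECH (0.0518) and MRPL46 (0.0549), HEY1 to NEK7 (0.0357) and ASCC3 (0.0427), and HEY2, the least matched, to NSA2 (0.181) and GNG11 (0.182). The points of each pattern share the 6 libraries, ZD8 included, and the distances are a description.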

How the data were processed

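Gene expression of 6 sow ovaries was taken from the FPKM table that the authors deposited. Per the methods of the study, reads were trimmed with NGSQCToolkit (v2.3.3) and mapped to Sscrofa 11.1 with HISAT2, and the counting program is not given in the sources used here. Reads behind each FPKM value were recovered with the longest RefSeq transcript, and at least 99.7% of the values above 0 that matched a transcript in each library were within 0.001 of a whole read. The main test was limma (3.58.1, R 4.3.3) with a trended variance on log2(FPKM + 1), for 12260 genes with at least 1 FPKM in at least 3 libraries. A call needed a difference over 1 in size and a p below 0.05 after Benjamini-Hochberg adjustment. This scale understates changes of low genes. An exact permutation test, two-sided, served for single values, and p-values measure the spread between ovaries of different sows. Alternatives were a pseudocount of 0.1 FPKM, no filter, an equal sum per library, median centring, array weights, adjusted p alone and each ovary left out; the endothelial percent and the comparisons of overlap, shares, sums and lists without ZD8 were added after seeing the data. The test script was checked on simulated data. The members, lists and named genes were chosen with earlier results of these data known. The rule named all 10 members, the other pathway genes with a mean of at least 10 FPKM or with groups apart, the 2 closest patterns of each member, and marker genes. Sums and medians of the granulosa and theca lists were compared between the groups. These lists and those of luteal, oocyte, stroma, leukocyte and epithelial genes served to describe ZD8. In these, stroma summed to 3425 FPKM in ZD8 and 3786 to 9601 FPKM elsewhere, leukocyte genes to 48.4 against 21.8 to 34.7 FPKM, and epithelial genes to 25.9 against 7.63 to 54.2 FPKM. The theca genes summed to 465 against 37.5 to 134 FPKM, granulosa genes to 183 against 198 to 889 FPKM, and oocyte genes to 156 against 97.8 to 188 FPKM, or without KIT to 128 against 6.54 to 23.2 FPKM. The 6 libraries titled rep, taken from a file name to be those of the miRNA table, were not used. Some pathway genes that the rule takes in, and 1 promoter window, are not reported here.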

Additional observations from a re-analysis of the deposited data

How the results depend on the processing

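No Notch gene was called under any of the 6 alternatives or with any of the 6 ovaries left out, with 0 to 2 at an unadjusted p under 0.05 by limma. DLL4 was no longer among these when libraries were centred on their median, where 0 Notch genes were, or with any one ovary left out. NOTCH4 was among these with a pseudocount of 0.1 FPKM and without ZD7 (unadjusted p = 0.0499 and 0.0365 by limma). Over all genes, 0 were called in the reported limma fit, where 216 had p under 0.05 before adjustment. The count was 13 with array weights (6 higher and 7 lower in LLS), and 0 to 21 with each ovary left out, where the fit without ZD8 alone called any (15 higher and 6 lower). The differences of NOTCH4 (-0.82 to -0.44), DLL4 (-0.68 to -0.46), NOTCH1 (-0.27 to -0.18) and JAG2 (-0.40 to -0.19) stayed below 0 under the other settings, and also with each ovary left out, from -0.92 to -0.44, -0.72 to -0.47, -0.41 to -0.10 and -0.56 to -0.15. Over all settings the adjusted p of DLL4 was 0.457 to 0.99999 and that of NOTCH4 0.515 to 0.99999 by limma. Array weights, which moved the median over all genes to -0.12, turned NOTCH2 to -0.39, NOTCH3 to -0.10 and JAG1 to -0.17. Centring on the library median turned JAG1 to -0.00745 and HES1 to -0.0164. With each ovary left out, NOTCH2 ran from -0.36 to 0.59, NOTCH3 from -0.0932 to 0.25, JAG1 from -0.20 to 0.20, HES1 from -0.0773 to 0.0542, HEY1 from -0.0760 to 0.21 and HEY2 from -0.59 to 0.16. Among the fits with an ovary left out, the negative value of NOTCH2 came without ZD8. The cause of these changes was not tested. No paired analysis was made, because the ovaries came from different sows and nothing in the labels ties a replicate number across the groups. With 3 ovaries in each group the exact test cannot go below 0.1, so that a small p was out of reach there.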
